A study of Mus musculus and synthetic construct with 21 samples.

Results

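The oligos described here carry, or have lost, a motif named sna or slug in a massively parallel reporter assay (MPRA) run in 3T3-L1 cells. The members were found by motif name and comprise 199 of the 9937 named oligos of pools 5, 6 and 7. Of these, 95 sna and 95 slug oligos of pool 6 have the motif written into a slot of a mouse element, and 9 oligos of pool 5 are an altered motif instance or its control. Pool 7, which tests arrays of motifs, holds 0 oligos with either name. The pair was selected on its measured values in pool 6, where its inserts were the lowest of 39 names against the slot mean, so the pool 6 values below are a description without a test, and only pool 5 was left to test.

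The 3T3-L1 line is a mouse pre-adipocyte line that turns into adipocytes. Per the labels, cells were grown past confluence and given dexamethasone (1 µM), insulin (1.7 µM) and IBMX (0.5 mM) for 48 h to start differentiation, and RNA was taken 16 h after transfection of the plasmid pool. Each pool has 1 RNA library and 1 plasmid library, with no treatment or genotype contrast and no replicate, so every spread below is over oligos, slots or sites and none covers a second culture. The reporters are plasmids outside the chromosomes, and no gene's expression was measured with them, so the state of the cells was not checked against markers.

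Snail (Snai1) and Slug (Snai2) are zinc finger proteins that bind E-boxes of the form CAGGTG, read as CACCTG on the other strand. They repress transcription through a short SNAG domain that recruits co-repressors, and they are best known for silencing E-cadherin when epithelial cells become mesenchymal. Snai1 is known to restrain adipocyte differentiation, and Snai2 has been tied to the growth of white fat in mice. The tables name motifs and not the proteins that bound them, so sna and slug below mean the motif names.

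The letters of the inserted motifs are not given in the files used here. What each oligo's name does give is the 16-base PPAR-type sequence of its mouse site, the native element that surrounds the insert. Those of the 4 pool 6 sites with the highest native activity are given below, on the strand named. Site 206, the one pool 6 site with a native sna motif, is added. Capitals mark bases equal to AGGTCA, the nuclear receptor half-site, at its 2 places in a DR1 (a direct repeat with 1 base between), counted out of 12.
Site 142: tctgGGcaAaAGGgtA
Site 138: attgGGgagaAGGgCA
Site 223: cagAGGcCAaAGGgCA
Site 182: aagAGGgaAaAGGTCA
Site 206: gctgGGTgAgAGaTCA
In mm9 these lie at chr3:30881176-30881191 (plus strand), chr9:31069961-31069976 (minus), chr8:129376258-129376273 (minus), chr5:149764926-149764941 (plus) and chr16:18537916-18537931 (plus). Gene positions in mm9 were not used here, so none is placed in a gene. Across the 15 sites of pool 6 between 6 and 10 of the 12 bases match, and a search of both strands found CACCTG or CAGGTG in 0 of the 15 sequences. Only these short sequences were searched, so the count says nothing about the rest of each element.

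Depth was ample for most oligos. Pool 5 held 15258069 RNA and 16952662 plasmid counts over named oligos, and pool 6 held 14198899 and 19193436. The 190 inserts of pool 6 had between 490 and 10267 plasmid counts and at least 63 barcodes each. Activity is log2 of RNA over plasmid, after adding 1 to each count and dividing by the library total, so 0 is the average ratio of the pool. Counting error alone gave a standard error of 0.023 to 0.13 on this scale (median 0.037). A broader measure came from 12 stretches that pool 6 lists as slots under more than 1 native name, with the same start and end. The same insert there differed between the listings by a median of 0.18 for sna and 0.21 for slug (14 pairs each). The matching SD of 1 oligo was 0.19 and 0.26, against 0.28 over all names, and the files do not say whether the paired oligos share every base.

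Inserted sna and slug motifs left reporters with about 0.61 and 0.62 times the activity of the average insert in the same slot. The slots are 95 stretches, named by site, native motif, start and end, and each received the same 39 motifs in turn. The sna insert stood 0.71 ± 0.45 (SD, n = 95 slots) below the slot mean and the slug insert 0.68 ± 0.48 below it. Below the mean were 92 sna and 89 slug inserts, where 55.4% of all single inserts lie below it. These are the values that chose the pair. Among the 39 inserts of a slot both names had a median rank of 4 from the lowest. One of the pair was the lowest insert in 29 of 95 slots, slug in 18 and sna in 11, and both were among the lowest 5 in 41.

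Just outside the pair came myb, sox13, areb6 and err3, 0.54 ± 0.35, 0.54 ± 0.39, 0.53 ± 0.39 and 0.52 ± 0.46 below the slot mean. The myb and sox13 names refer to a helix-turn-helix and an HMG-box factor, and err3 to an estrogen-related nuclear receptor. The areb6 name belongs to ZEB1, another zinc finger repressor of CAGGTG E-boxes. All 4 are named for their place in this order, so they too are given without a test. The step from slug to myb is less than the spread of either name over slots. At the other end stood bach1, a bZIP factor that pairs with small Maf proteins, 1.05 ± 0.63 above the mean. Of the 37 names other than sna and slug, 43.2% were lower and 37.8% higher than the slot mean by a sign-flip permutation test over slots, which share sites and libraries and so are not independent.

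The levels show what these differences amount to. RNA over plasmid counts of the sna inserts ran from 0.192 through a median of 0.331 to 0.843, and those of slug from 0.202 through 0.322 to 2.27. The bach1 inserts ran from 0.300 through 1.02 to 6.64, so the ranges overlap and the medians are well apart. Medians of the next names were close to the pair, at 0.341 for myb, 0.352 for sox13, 0.349 for areb6 and 0.368 for err3.

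Averaged by site, the activity of sna inserts spanned a much narrower range than that of the native elements. The wt element ranged from -1.31 at site 206 to 1.82 at site 142 (SD 1.06 over 15 sites). The sna level ranged from -1.54 to -0.68 (SD 0.21), and the slug level from -1.45 to -0.27 (SD 0.29). The sna SD was the smallest of the 39 names and the slug SD the fifth smallest, with ap2 (0.23), err3 (0.25) and err2 (0.26) between them. Even the largest SD of the 39 names, 0.88 for fra1, was below that of wt, so a smaller SD than wt is not particular to the pair. Insert levels are also means over the slots of a site, while wt is a single oligo per site. The levels still followed the native element in order, with a Spearman rho of 0.90 between site level and wt activity for sna and 0.72 for slug (Pearson r = 0.75 and 0.59, n = 15), a description of sites measured in the same libraries. Fitted across sites, the level rose by 0.15 for sna and 0.17 for slug per unit of wt activity, against 0.46 for bach1. The rise was 0.11 for err3, 0.18 for ap2 and 0.19 for err2, so a shallow rise is not particular to the pair.

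Against the wt element the differences were therefore largest at the active sites and shrank as wt activity fell. Over all single inserts the 5th percentile of activity was -1.52, so few inserts of any name lay far below the weakest wt levels. Whether a lower limit of the assay plays a part was not tested. At site 142, where wt had 78455 RNA counts for 29992 plasmid counts, the difference from wt was -2.79 ± 0.44 for sna and -2.72 ± 0.39 for slug (SD, n = 6 slots), which is 6.91 and 6.58 times lower. Both names were below wt in all 6 slots there, though all but the ap2 slot at 5 to 17 overlap, within positions 25 to 41.
At site 138 the differences were -2.46 ± 0.79 and -2.67 ± 0.73 (n = 3), again below wt in every slot. At site 223 they were -2.21 ± 0.39 and -2.03 ± 0.75 (n = 17), with sna below wt in 17 slots and slug in 16. At site 182, the last of those with wt activity above 0, they were -1.18 ± 0.49 and -0.77 ± 0.43 (n = 5).

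The 11 sites with wt activity below 0 gave smaller differences. Sites 407 and 508, the next in wt activity, differed from wt by -1.06 ± 0.25 and -0.82 ± 0.16 with sna (n = 5 each), and slug was 2.01 and 2.05 times lower than wt there. Site 240 gave -0.43 ± 0.19 and -0.57 ± 0.22, with sna below wt in all 14 slots and slug in 13. Over the 11 sites, 57 of 64 sna and 55 of 64 slug inserts were below wt. At the other 8 sites the mean sna insert lay between 0.13 (site 330) and 0.37 (site 31) below wt. The slug mean there ran from 0.44 below wt at site 152, which has 1 slot, to 0.03 above it at site 699. At these 8 sites many single differences are no larger than the spread between listings of the same stretch.

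Over all 95 slots, 88 sna and 85 slug inserts were below wt, where 57.9% of all single inserts are. The mean difference was -0.96 ± 0.97 for sna and -0.94 ± 0.96 for slug (SD, n = 95), with medians of -0.56 and -0.61. Of the other 37 names, 62.2% were lower than wt in the same kind of test over slots. By means over sites, sna was below wt at 15 of 15 sites (-0.86) and slug at 14 (-0.84). Without the 17 slots of site 223 the means were -0.69 and -0.70.

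At the active sites the average insert was itself below wt, and sna and slug were lower still. The average insert at the 4 active sites differed from wt by -1.14 ± 0.89 (SD, n = 31 slots), the sna insert by -2.18 ± 0.66 and the slug insert by -2.02 ± 0.89. At the 11 weak sites the average insert stood 0.17 ± 0.41 above wt (n = 64 slots), while sna and slug stood 0.38 ± 0.35 and 0.41 ± 0.39 below. Against the slot mean the difference was thus -1.03 ± 0.51 for sna at active sites and -0.55 ± 0.32 at weak ones, with -0.88 ± 0.55 and -0.58 ± 0.41 for slug. The other inserts of a slot also spread more at active sites, with a mean SD of 0.79 against 0.55. Measured from the mean of those other inserts and in units of that SD, sna was 1.32 and 1.02 lower at active and weak sites. Slug was 1.18 and 1.04 lower. Across the 95 slots the difference from the slot mean correlated with that SD (Pearson r = -0.81 for sna, -0.65 for slug), a description of slots that share sites and libraries.

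Slots over AP-1 motifs, the binding sites of FOS and JUN dimers, gave the lowest values by class. In the 11 slots named for AP-1 or bach1, at 3 sites, sna was 1.13 ± 0.36 and slug 1.09 ± 0.28 below the slot mean, and 2.27 ± 0.90 and 2.23 ± 0.79 below wt. In the 40 slots named for nuclear receptors the differences from the mean were -0.66 ± 0.49 and -0.66 ± 0.48. C/EBP and PAR bZIP slots gave -0.62 ± 0.41 and -0.41 ± 0.31 (n = 14), NFI slots -0.50 ± 0.23 and -0.52 ± 0.35 (n = 11), and AP-2 slots -0.96 ± 0.50 and -0.86 ± 0.82 (n = 7). All but 1 of the AP-1 slots lie at the active sites 142 and 223, so class and site cannot be told apart. At each of these sites the AP-1 slots overlap, within positions 25 to 41 of site 142 and 29 to 44 of site 223. The 11 slots are therefore not 11 separate places. The place of the slot within the element and its length went with the differences only weakly (Spearman rho of 0.19 and 0.10 for sna, and 0.13 and -0.03 for slug).

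Site 223 shows how much the slot matters within 1 element. Between positions 29 and 53, in 9 slots, the average insert kept an activity of 0.44, and the differences from it were -1.30 ± 0.32 for sna and -0.97 ± 0.55 for slug. Between positions 77 and 104, in 7 slots named for nuclear receptors or cebp, the average insert itself was at -1.12, and sna and slug differed from it by -0.36 ± 0.20 and -0.31 ± 0.23. In the slot at 115 to 129 sna was 1.52 and slug 1.90 below a mean of 0.89. The mean sna activity was -0.86, -1.47 and -0.63 in the 3 stretches.

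The single lowest sna inserts were in the cebp slot at 41 to 53 of site 223 (2517 RNA for 5321 plasmid counts, 3.70 times below the slot mean) and the ap2 slot at 5 to 17 of site 142 (870 for 1241, 3.43 times). Next were the rxr and lxr slots at 38 to 52 of site 182 (1793 for 4748 and 1870 for 4858), which are 1 stretch in 2 listings, at 3.11 and 3.01 times below. The lowest slug inserts were in the ap2 slot of site 142 (3749 for 6496, 4.17 times below), the hnf4 slot at 115 to 129 of site 223 (2081 for 5639, 3.72 times), the myb slot at 26 to 35 of site 240 (2303 for 7400, 3.07 times) and the rxr slot at 100 to 114 of site 182 (2615 for 6724, 2.66 times).
The highest sna inserts sat close to their slot means. They were in the nr1 slot at 123 to 139 of site 280, 0.30 above, the rxr slot at 85 to 104 of site 223, 0.03 above, the couptf slot at 2 to 20 of site 206 at 0.00, and the hnf4 slot at 124 to 136 of site 182, 0.02 below. The site 280 stretch was also listed as an rxr slot, where sna was 0.16 below the mean, so the 0.30 did not recur. The highest slug inserts were in the ap2 slot at 78 to 92 of site 699 (0.45 above), the cebp slot of site 223 (0.38), the couptf slot of site 206 (0.24) and the rxr slot at 49 to 67 of site 330 (0.10).

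Averaged over slots the names lay close together, and in single slots they could part. The sna insert was lower than slug in 46 of 95 slots, and the difference was -0.03 ± 0.39 (SD), or -0.02 ± 0.18 by means over 15 sites, with a median of 0.01. In 53 slots they were within 0.25 of each other, about the distance between 2 listings of the same stretch. Their differences from the slot mean correlated across slots (r = 0.65, rho = 0.72, n = 95, slots that share sites, libraries and the slot mean). The same correlation with areb6 was 0.59 for sna and 0.52 for slug, and with myc, another E-box name, 0.13 and 0.08 (n = 94). The same correlation was not computed for the other low names, so these values have no background. The sna and slug differences also went with the SD of the other inserts (r = -0.81 and -0.65). The myc inserts, with a median rank of 19, were not among the low ones. Whether a shared E-box plays a part was not tested.
A single slot separated the pair by more than 1. In the cebp slot at 41 to 53 of site 223, slug kept 13378 RNA counts for 5883 plasmid counts and sna 2517 for 5321, a difference of 2.26. It is the slot where sna was lowest relative to the slot mean, although its activity of -0.64 was above the sna median of -1.16, and where slug had its highest activity, 1.62. Site 182 also told them apart in the same direction at positions 38 to 52, where sna was at -0.94 and -0.97 and slug at 0.03 and -0.03 in the 2 listings.

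Pool 5 asks the converse question, what happens when a native motif is altered, and it holds 5 altered sna instances and 1 altered slug instance. At the 5 sna sites, altering the motif changed activity by between -0.96 and 0.35. The instance at position 52 of site 467 had 1809 RNA for 8128 plasmid counts, a ratio of 0.223 against 0.434 for wt, and lay 0.96 below wt. The instance at position 86 of site 78 had a ratio of 0.478 against 0.816 and lay 0.77 below. Those at position 18 of site 206 (0.262 against 0.286) and position 94 of site 393 (0.842 against 0.864) were 0.12 and 0.04 below, while that at position 87 of site 388 was above wt by 0.35 (0.901 against 0.705).

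Thus 4 of 5 altered sna instances were below wt, where 85.9% of all single altered instances are. Their mean of -0.31 ± 0.55 (SD, n = 5) did not pass a two-sided exact sign-flip test (p = 0.3125, adjusted p = 0.3125 over 39 names). With 5 instances the smallest p possible is 0.0625, so this number of instances could not have passed. Of the 39 names 87.2% were called lower than wt by sign-flip tests of this kind, at an adjusted p under the threshold. Leaving out site 467 gave a mean of -0.14, leaving out site 78 -0.19, and leaving out site 388 -0.47.

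The altered slug instance starts at position 4 of site 614 and had 3012 RNA counts for 4923 plasmid counts, against 22095 for 12630 in wt. It was 1.52 below wt, or 2.86 times lower, a difference far beyond its counting error of 0.037. The same stretch was altered under 13 other names starting within 10 positions, which gave 11 separate oligos, all named for nuclear receptors. All 11 were below wt, by 0.74 to 2.33 (median -1.82), and 8 of them were lower than the slug oligo. The slug oligo thus stands within the range of the other alterations of this stretch.

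Of the 5 sna instances, 3 also have neighbours altered under other names. At site 78, the 4 oligos altered for hnf4, ppar, pparg or rxr within 10 positions were 0.56 to 0.87 below wt, around the 0.77 of sna. At site 206, 3 oligos altered there were 0.02 to 0.45 below, around the 0.12 of sna. At site 388 the myc oligo starting 1 base earlier was 0.25 below wt and the cebp oligo at position 95 was 0.53 above, with sna between them. At sites 467 and 393 no other named alteration starts within 10 positions. The sna oligo of site 467 was the lowest of the 6 altered or control oligos of its site, whose median stood 0.61 above wt.

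Controls named sna_ctrl or slug_ctrl were at other sites than the altered instances, so 0 of 6 instances had a control of its own name beside it. The 2 sna controls were above wt by 0.75 (site 129) and 0.73 (site 482), and the slug control at site 298 was 0.17 below. Thus 1 of these 3 lay below wt, where 65.3% of all single controls do. Against controls of any name at the same site, the sna instances differed by -1.67 at site 467 (3 controls), -0.26 at site 78 (4), 0.08 at site 206 (1) and 0.99 at site 388 (4). By the same measure the slug instance of site 614 was at -0.20 (4 controls), much nearer 0 than against wt.

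Site 206 joins the pools, since its native sna motif spans positions 18 to 31 and was both altered and replaced. Writing sna back into the slot gave 1257 RNA for 4202 plasmid counts, a ratio of 0.299 that equals the wt ratio of 0.299 at this precision. Slug in the same slot gave 0.239, 0.32 below wt and the fourth lowest of the 39 inserts. The 39 inserts averaged 0.05 ± 0.29 (SD) above wt, 22 of them below it, and bach1 was highest at 0.92 above. In pool 5, altering the motif at this site gave a difference from wt of -0.12. Site 206 is the least active of pool 6, and across the 11 sites in both pools wt activity correlated with r = 0.97, a description of sites.

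Of the list of E-box names set for comparison, which runs from Snail and Twist to MYC and USF names, 3 occur in each of pools 5 and 6: sna, slug and myc. The myc inserts were 0.16 ± 0.46 below the slot mean (permutation adjusted p = 0.0011 over slots, which share sites). Below it were 65 of 94 slots and 11 of 15 site means, where 55.4% of all single inserts lie below. Their median rank was 19 of 39, near the middle of a slot. In that test 43.2% of the 37 names other than sna and slug were lower. Against wt the myc inserts differed by -0.40 ± 0.99, with a median of -0.15, and were below wt at only 8 of 15 sites. Altered myc instances fell by 0.53 ± 0.60 in pool 5 (20 of 21 below wt, permutation adjusted p = 7.09e-05). Over all altered instances the mean was -0.82 and 85.9% were below wt. Since 87.2% of the 39 names were called lower in that test, the call is not particular to myc. The areb6 name, added for its shared E-box after the names were seen, gave -0.20 ± 0.55 over 12 altered instances (8, or 66.7%, below wt, exact sign-flip adjusted p = 0.306).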

How the data were processed

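Reporter RNA and plasmid DNA were counted in pools 5, 6 and 7, with 1 library of each kind per pool. The authors deposited raw read counts summed over all barcodes of an oligo, per the series' design text and the file headers, together with the number of barcodes. The submitters' processing notes name mm9 and Bowtie2 2.1.0. The barcode number equalled the deposited barcode map for 3720 of 3720 oligos of pool 6 and 2326 of 2974 of pool 5. In pool 5, 101 rows with no name (3.00% of RNA and 4.90% of plasmid counts) were left out. Coordinates were read as counted from 0 in the names and are printed from 1.

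Activity used a pseudocount of 1 and oligos with at least 50 plasmid counts; no sna or slug oligo fell below that. Instances were paired with the wt oligo of their site and inserts with the mean of their slot. Tests were two-sided sign flips over instances or slots, exact up to 16 values and otherwise with 100000 permutations (smallest p 1e-05). They were run on simulated data with noise drawn separately for each oligo, a check that did not cover the overlap of slots. The p-values were adjusted by Benjamini-Hochberg over 39 names at a threshold of 0.05. In pool 6 the p-values of sna and slug entered that adjustment and were neither reported nor counted. Instances and slots of a site share its wt oligo, and many slots of a site overlap, so they are not independent. A planned test against own-name controls at the same site had no sna or slug value, nor did pool 7.

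The members and lists were chosen with earlier results of these data known. Oligos named singly were every pool 5 member, the 4 lowest and 4 highest slots of each name against the slot mean, and the sna slot; also the 4 names next above the pair and the highest name. Python 3.11.15, numpy 2.4.6 and pandas 2.3.3 were used.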

Additional observations from a re-analysis of the deposited data

How the results depend on the processing

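The 7 results kept their direction under changes of pseudocount (0.5 or 5) and count minimum (none or 250 plasmid counts). The sna insert lay between -0.74 and -0.63 against the slot mean over 24 alternatives and the slug insert between -0.72 and -0.60, including the slot median, the mean of the other inserts, and, chosen after seeing the data, slots at the same positions averaged first. Leaving out each site in turn gave -0.74 to -0.66 for sna and -0.71 to -0.64 for slug. Against wt the same gave -1.06 to -0.69 and -1.01 to -0.70. The sna minus slug difference was never far from 0 (-0.06 to 0.00 with a site left out), and its sign changed with the median over slots (0.01) and without site 223. The altered sna instances of pool 5 did not pass under any alternative with a test (adjusted p 0.135 to 0.625 by the sign-flip permutation test). None could have passed, since the smallest p possible with 5 instances is 0.0625 and no alternative had more instances. Their means were -0.47 to -0.14 when a site was left out. The altered slug instance moved from -1.52 against wt to -0.20 against control oligos of its site, a comparison chosen after seeing the data; the cause was not tested. Own-name controls and pool 7 gave no value under any setting, as neither comparison has a sna or slug oligo. Differences were paired within a site or slot, but no pairing over cultures was possible because each group has 1 library. Depth limits little here, but counts summed over barcodes hide the spread between barcodes, and 1 slug and 5 sna instances limit what pool 5 can show.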
